A study of Homo sapiens with 3 samples.

Results

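The heat-shock proteins and their DNAJ co-chaperones were examined as a group of 72 genes among the 16149 genes listed in at least 1 of the 3 libraries. Members were taken by symbol, namely the HSPA, HSPB, HSP90A, DNAJA, DNAJB and DNAJC families together with HSPD1, HSPE1 and HSPH1, and HSPA5 was left out. Where a library did not list a gene, its level was taken as 0. The group held 14 HSPA, 7 HSPB, 6 HSP90A, 3 DNAJA, 11 DNAJB and 28 DNAJC genes.

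Messenger RNA had been sequenced from 3 human hepatocellular carcinoma (HCC) cell lines with 1 library each. All 3 are labelled HCCLM3, a metastatic HCC line, and were grown in DMEM. According to the methods of the study the parental cells were HCCLM3-R, a derivative that stably makes a red fluorescent protein. The parent is labelled as of low metastasis ability, whereas the methods give HCCLM3-R a high metastatic potential. The labels describe subclone 1 as more metastatic and specific to lung, and subclone 2 as able to reach both lung and celiac lymph node. The subclones were grown from single cells obtained by limiting dilution of cells taken from metastases in nude mice, so that each subclone stands for 1 clone, and which clones were sequenced was not named. With 1 library per line no test between lines was possible and no p-value was computed. The comparison asked whether the chaperone mRNAs differed between the parent and its subclones, and between the subclones. Both comparisons with the parent rest on the same parental library.

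Chaperones bind unfolded or unstable proteins and keep them from aggregating. HSP70 proteins bind and release short hydrophobic stretches in a cycle driven by ATP. A J-domain protein (DNAJ) brings the client and triggers ATP hydrolysis, and a nucleotide exchange factor such as HSPH1 or a BAG protein resets the cycle. HSP90 acts later on clients such as kinases and steroid receptors, with its own set of co-chaperones. In mitochondria HSPA9 pulls in imported proteins and the HSPD1 and HSPE1 chaperonin folds them. The small heat-shock proteins (HSPB) hold clients without ATP. Many of these genes are transcribed more under heat or protein damage, when the factor HSF1 binds heat shock elements in their promoters, while others are made at all times. Chaperone mRNAs are usually abundant in hepatocellular carcinoma cells.

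Levels were given as RPKM, the reads of a gene per kilobase of its length and per read of the library, scaled to a common total, so that they can be compared between genes as well as between libraries. Whole reads could be recovered from the RPKM. The library totals they imply were 4488825 reads in the parent against 4609696 in subclone 1 and 4725150 in subclone 2. From these reads each fold has a 95% interval that covers counting error only and compares libraries, not lines. Where 3 values follow each other they are those of the parent, subclone 1 and subclone 2, and where 2 folds do, those of subclone 1 and of subclone 2 over the parent. Reads of a bulk culture cannot tell fewer cells of a type from less RNA per cell. The tissue labels were checked against markers. Epithelial KRT8 (1614 to 1742 RPKM) and KRT18 (953 to 1075 RPKM) were high in every library. Of 12 hepatocyte or HCC markers 10 were listed, and APOA2 and GPC3 were not, and their summed level, mostly keratins, was 2579.7, 2816 and 2880.05 RPKM. ALB, the hepatocyte secretory protein albumin, was at 2.46 RPKM in the parent against 49.5 in subclone 1 and 68.8 in subclone 2, and TTR, APOA1 and SERPINA1 were below 1 RPKM in all 3. The leukocyte gene PTPRC had 2 reads in the parent and none in the subclones, CD3E was not listed, and the summed level of the 5 leukocyte markers, from 76.6 RPKM in the parent to 114 in subclone 1, was nearly all CD68, which was at 75.3 to 112. The summed level of 7 fibroblast markers, 6 of them listed, ranged from 15.7 RPKM in the parent to 31.2 in subclone 1. That of 4 endothelial markers ranged from 4.74 to 11.8 in the same libraries, with CDH5 and VWF below 1. These summed levels were higher in both subclones than in the parent, with COL3A1 (4.42, 2.21 and 0.463 RPKM) the other way, and their part in the chaperone differences was not tested.

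The regulatory sequence of a few members is shown first, because the group mixes genes built for heat induction with genes that are always on. A heat shock element was read as 3 units, GAA and TTC in turn with 2 free bases between them, starting with either unit and so covering both strands, 13 bases in all. It was looked for in the 250 bases before the gene start, which were taken from RefSeq promoters of GRCh38.p14. The element was present in 120 of 27303 promoters (0.44%). Of the 72 members 59 were matched to a promoter, and 3 of these (5.08%) held the element, namely HSPA8, HSPA6 and DNAJB6. No member held the longer element of 4 units, which 8 of all promoters held (0.0293%). In the lines that follow, capitals mark a heat shock element in HSPA8 and DNAJB6 and the TATAAA box in HSPA1A.
HSPA8, chr11:123062137-123062386, minus strand: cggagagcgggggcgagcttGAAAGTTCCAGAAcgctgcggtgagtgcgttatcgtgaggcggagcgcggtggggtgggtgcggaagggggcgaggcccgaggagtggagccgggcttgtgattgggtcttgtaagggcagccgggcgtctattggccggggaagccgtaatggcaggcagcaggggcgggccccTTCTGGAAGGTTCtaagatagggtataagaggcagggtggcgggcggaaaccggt
DNAJB6, chr7:157336754-157337003, plus strand: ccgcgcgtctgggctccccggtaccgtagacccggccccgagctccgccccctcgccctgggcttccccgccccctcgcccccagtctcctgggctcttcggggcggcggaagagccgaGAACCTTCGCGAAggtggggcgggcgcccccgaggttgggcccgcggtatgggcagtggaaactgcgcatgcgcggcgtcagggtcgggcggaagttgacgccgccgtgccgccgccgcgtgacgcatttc
HSPA1A, chr6:31815293-31815542, plus strand: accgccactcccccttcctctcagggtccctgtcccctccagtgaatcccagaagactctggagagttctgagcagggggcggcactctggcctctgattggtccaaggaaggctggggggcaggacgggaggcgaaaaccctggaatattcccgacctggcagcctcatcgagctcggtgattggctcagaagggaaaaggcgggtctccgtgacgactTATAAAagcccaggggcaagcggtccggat

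HSPA8 held 2 elements that did not overlap, the first bases of which lay 230 and 55 bases before the gene start. DNAJB6 held 1 at 131 bases, and HSPA6, whose promoter is not printed, held 1 at 74 bases. HSPA1A, the standard heat-inducible gene, had no unbroken element of this strict form, and the TATAAA box lay within the last 60 bases before its start. A TATAAA box in that window was present in 843 of all promoters (3.09%) and in 4 of the 59 matched members (6.78%), HSPA1A, HSPA1B, HSPB6 and HSPB7. A match describes letters in this window and is neither a bound site nor a cause of a level.

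HSPD1 and HSPE1 are neighbours that start in opposite directions on chromosome 2, with 104 bases between their starts. The stretch between them, which both genes use as upstream sequence, is shown because the 2 mRNAs did not keep a fixed ratio. It has no capitals, since no element was found in it.
HSPD1 to HSPE1, chr2:197500275-197500378, plus strand: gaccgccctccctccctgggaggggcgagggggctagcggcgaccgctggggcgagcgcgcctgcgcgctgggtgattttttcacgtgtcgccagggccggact

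Of the 104 bases 74.0% were G or C, with 13 CG pairs.

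The group was strongly expressed and its summed level was lower in both subclones. The summed RPKM of the 72 genes was 6157 in the parent against 5335 in subclone 1 and 5103 in subclone 2, a fold of sums of 0.867 and 0.829 over the parent. This was 1.485%, 1.279% and 1.217% of the summed RPKM of all genes. HSPA8, HSP90AA1, HSPB1 and HSPD1 were, by their mean, the highest members, and the 4 highest of each library together held 59.95% of the parent's sum, 58.4% of that of subclone 1 and 57.53% of that of subclone 2. Among the families by symbol, HSPB was the exception to the lower sums, with 554 RPKM in the parent against 751 in subclone 1 and 636 in subclone 2. A sum mostly follows its most abundant genes and does not describe each member. That of the HSPA family had a fold of 0.817 and 0.766 over the parent. The median log2 difference of its 10 genes with a mean of at least 1 RPKM was -0.0023 in subclone 1 and -0.046 in subclone 2.

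**Figure D1:**
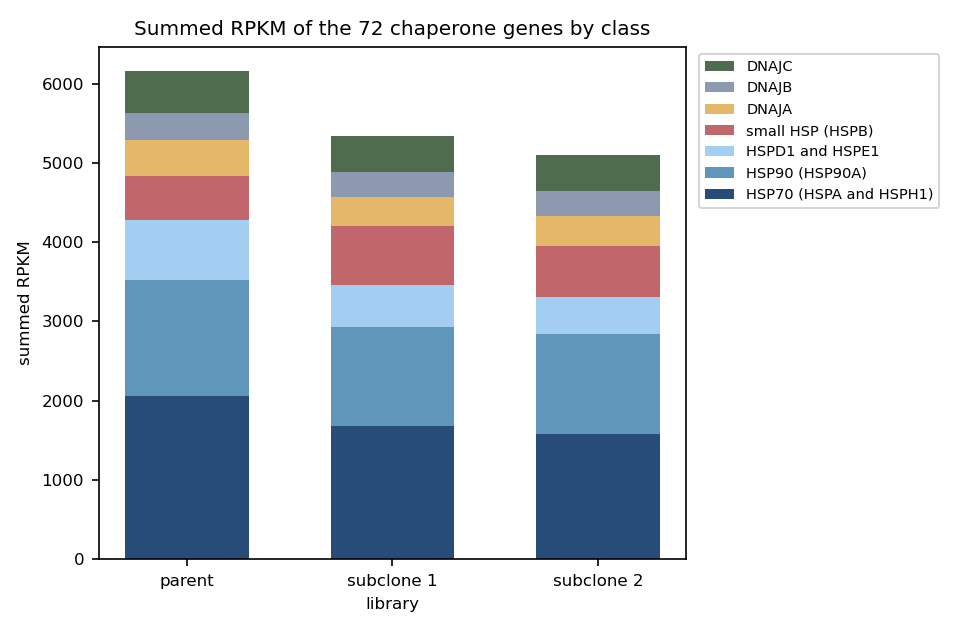
Stacked bars give the summed RPKM of the 72 chaperone genes in each of the 3 libraries, split by class. The whole bar was 6157 in the parent against 5335 in subclone 1 and 5103 in subclone 2, and the HSPB part was larger in both subclones than in the parent.

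Averaged over the libraries, 55 members reached 1 RPKM, of which 9 were at 100 or more, 29 from 10 to 100 and 17 from 1 to 10. The other 17 members were near the limit of detection, with at most 31 reads in a library, and entered no count of differences. They include HSPA6, a strictly heat-induced HSP70, which had 5 reads in the parent against 6 in subclone 1 and 3 in subclone 2 (0.418, 0.489 and 0.238 RPKM). They also include HSPA1L, HSPA7, HSPA12B, HSPB7, HSPB9, the read-through HSPB2-C11ORF52, the HSP90 pseudogenes HSP90AB3P and HSP90AB4P, DNAJB3, DNAJB13 and 6 DNAJC genes. A count of 0, where it occurred, allows up to 3 reads. Among these low genes DNAJC6, the neuronal clathrin-uncoating protein auxilin, had 26, 31 and 10 reads, and subclone 2 was at 0.365 of the parent (0.157 to 0.783). DNAJC6 was picked out after its values were seen.

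**Figure D2:**
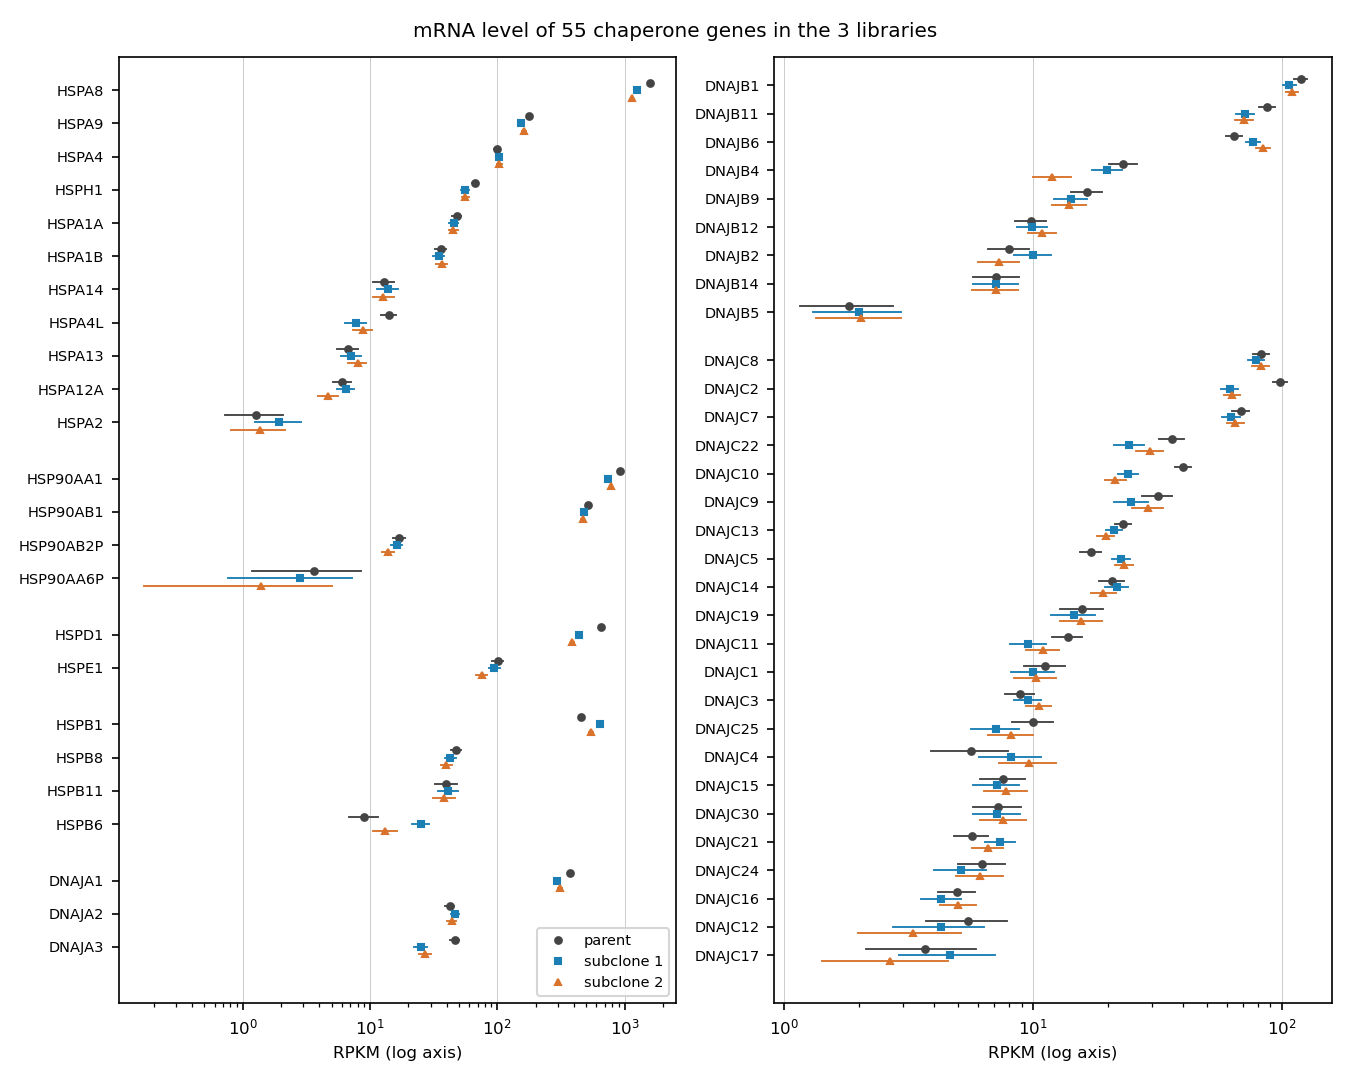
Points give the RPKM of the 55 members with a mean of at least 1, on a log axis, in the parent (circles), subclone 1 (squares) and subclone 2 (triangles), and lines give exact Poisson 95% intervals from the reads. The parent lay to the right of both subclones for HSPA8, HSP90AA1, HSPD1, DNAJA1, DNAJA3, DNAJC2 and DNAJC10, and to the left for HSPB1 and HSPB6.

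Levels were similar across the 3 lines for most members. The highest library was less than 1.5 times the lowest for 43 of the 55 and at least 2 times for 2 genes, HSPB6 and HSP90AA6P. The share of all genes past these limits was not computed, so these counts are not read as particular to the members. The median of the highest over the lowest library was 1.217 for the members. It was 1.299 for those of all 11370 genes at the same minimum level that were listed in all 3 libraries. Members had more reads, with a median of 249.3 against 162.8, which makes their counting intervals narrower.

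Compared with the parent, 36 of the 55 members were lower in subclone 1 and 38 in subclone 2. Of all 11370 genes, 5635 and 5286 were lower, and each count of lower genes in a class or list below stands against these. The median log2 difference of the members was -0.11 in subclone 1, where that of all genes was 0.0043. In subclone 2 it was -0.12, where that of all genes was 0.037. At 2-fold, on log2 of RPKM + 0.1, 1 member (HSPB6) was higher in subclone 1 and none was lower, against 4.9% and 1.82% of all genes. In subclone 2 none was higher and 1 (HSP90AA6P) was lower, against 5.33% and 2.16%. HSP90AA6P is a pseudogene with 5, 4 and 2 reads, and its interval (0.0362 to 2.32) held 1. At 1.5-fold with an interval that leaves out 1, subclone 1 had HSPB6 higher and DNAJC2, DNAJA3, DNAJC10 and HSPA4L lower (7.27% of the members), against 9.32% of all genes higher and 6.24% lower. Under the same rule subclone 2 had DNAJC4 higher and HSPD1, DNAJC2, DNAJA3, DNAJC10, DNAJB4 and HSPA4L lower (10.9% of the members), against 10.5% and 5.82%. Counting every interval that leaves out 1, whatever the size, 5 members were higher and 17 lower in subclone 1, or 9.09% and 30.9% against 20.4% and 19.4% of all genes. In subclone 2 it was 5 higher and 20 lower, or 9.09% and 36.4% against 23.1% and 18.3%. In both comparisons the share of members that were higher was below that of all genes under each rule. The share that were lower was above it by the interval alone, and at 1.5-fold in subclone 2, and close to it at 1.5-fold in subclone 1. With 1 library per line these shares are a description, and their difference was not tested.

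**Figure D3:**
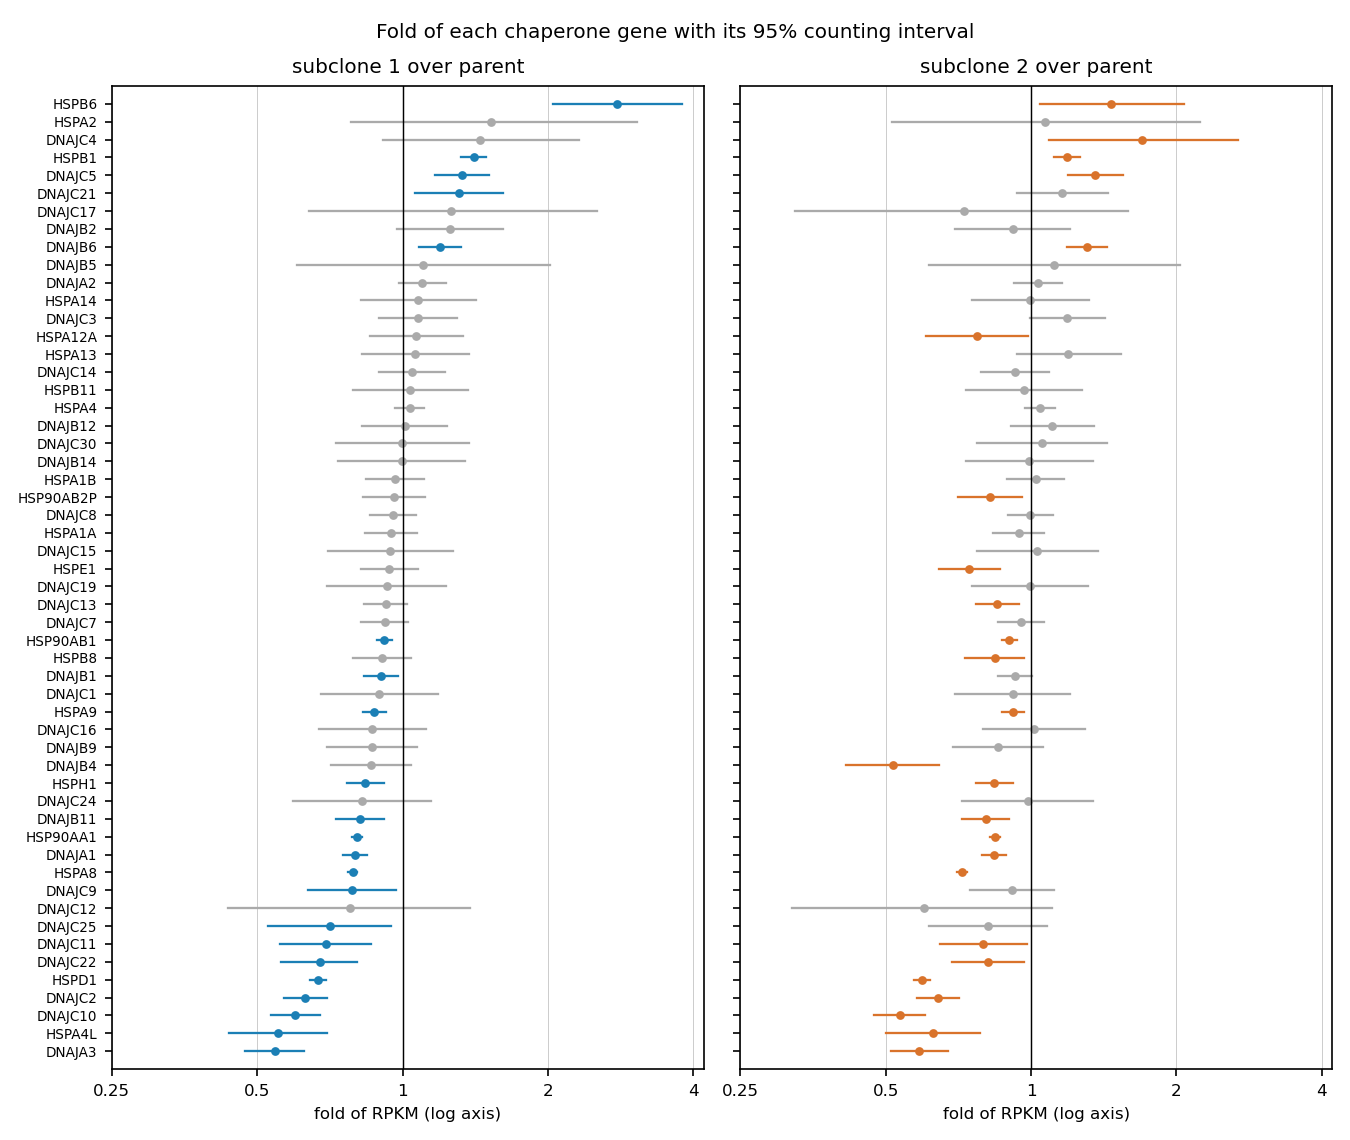
Points give the fold of RPKM over the parent for 54 members on a log axis, with 95% counting intervals, in subclone 1 (left) and subclone 2 (right), in the order of subclone 1. HSP90AA6P (5, 4 and 2 reads) is left out, coloured genes have an interval without 1, and most coloured genes lie to the left of 1 in both panels.

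**Figure D4:**
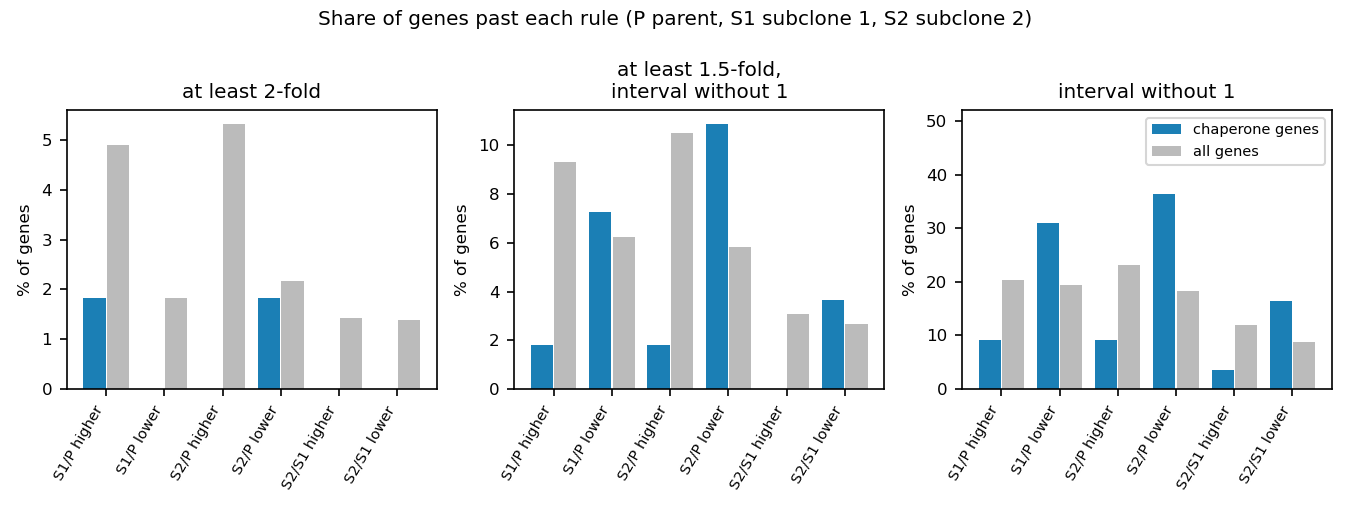
Bars give the percentage of the 55 chaperone genes (blue) and of all genes above that minimum mean of 1 RPKM (grey; 11370 at 2-fold, 11368 with whole reads for the interval rules) past each of 3 rules, by comparison and direction. In both comparisons with the parent the blue bars for higher genes are the shorter of their pair, and those for lower genes under the interval rule are the taller, at 30.9% against 19.4% and 36.4% against 18.3%.

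The cytosolic HSP70 genes differed mainly through HSPA8. HSPA8, the constitutive HSP70 that also strips clathrin from vesicles, was at 1590.4 RPKM in the parent against 1253 in subclone 1 and 1142.5 in subclone 2. Its fold was 0.788 (0.770 to 0.806) in subclone 1 and 0.718 (0.702 to 0.735) in subclone 2, so the parent stood above both. The stress-inducible HSPA1A was at 48.0, 45.3 and 45.3 RPKM and HSPA1B at 35.8, 34.5 and 36.6. The intervals of HSPA1A (0.834 to 1.07 in subclone 1, 0.834 to 1.07 in subclone 2) and of HSPA1B (0.839 to 1.11 and 0.891 to 1.17) held 1. These 2 genes share most of their sequence, with 72.6% of the 50-base stretches of HSPA1A also found elsewhere, chiefly in HSPA1B, so their split is uncertain. Their sum was 83.8, 79.9 and 81.9 RPKM. HSPA8 was 33.1 times HSPA1A in the parent, 27.6 times in subclone 1 and 25.2 times in subclone 2. HSPA14, the HSP70 of the ribosome-associated complex, was chosen after its values were seen, as the partner of DNAJC2, and was at 12.8, 13.8 and 12.7 RPKM with intervals that held 1.

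Among the HSP110-type exchange factors, HSPA4, the commonest of them in these libraries, was at 99.5, 103 and 104 RPKM and its intervals held 1 (0.963 to 1.11 and 0.973 to 1.12). HSPH1, a heat-inducible exchange factor, was at 66.6, 55.8 and 55.9 RPKM. Its fold was 0.837 (0.767 to 0.914) in subclone 1 and 0.839 (0.769 to 0.916) in subclone 2. HSPA4L, the third and scarcest of them, was at 14.0, 7.73 and 8.76 RPKM. Its fold of 0.553 (0.437 to 0.697) and 0.627 (0.501 to 0.783) put both subclones below the parent, and in subclone 1 its interval lay below those of HSPA4 and HSPH1.

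Both HSP90 genes were lower in the subclones. HSP90AA1, the inducible form, was at 927 RPKM in the parent against 745 in subclone 1 and 781 in subclone 2, a fold of 0.803 (0.785 to 0.822) and 0.842 (0.824 to 0.862). HSP90AB1, the constitutive form, was at 519.8, 477 and 469 RPKM, a fold of 0.917 (0.884 to 0.951) and 0.902 (0.870 to 0.935). The quotient of the inducible over the constitutive gene was 1.78 in the parent against 1.56 in subclone 1 and 1.67 in subclone 2. Of the stretches of HSP90AA1 17.5%, and of HSP90AB1 19.6%, were also found in other genes.

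The mitochondrial chaperones included some of the largest differences. HSPD1, the chaperonin ring known as HSP60, was at 654 RPKM in the parent against 437 in subclone 1 and 388 in subclone 2. Its fold was 0.667 (0.643 to 0.693) in subclone 1, just short of 1.5-fold, and 0.593 (0.571 to 0.617) in subclone 2. HSPE1, the lid of that ring, was at 101, 94.6 and 75.2 RPKM. Its interval held 1 in subclone 1 (0.819 to 1.07) and did not in subclone 2, where the fold was 0.746 (0.645 to 0.861). HSPD1 was 6.48 times HSPE1 in the parent, 4.61 times in subclone 1 and 5.16 times in subclone 2. The intervals of their folds did not overlap in either subclone. The 2 genes share the 104 bases printed above. Of their stretches 26.5% (HSPD1) and 27.2% (HSPE1) were also found in other genes, among them the pseudogene HSPD1P1.

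HSPA9, the HSP70 of the import motor, was at 177, 154 and 162 RPKM, with a fold of 0.874 (0.827 to 0.922) and 0.918 (0.870 to 0.969). DNAJA3, its mitochondrial J protein, was at 46.1 RPKM in the parent against 25.0 in subclone 1 and 27.1 in subclone 2. Its fold of 0.543 (0.471 to 0.624) in subclone 1 was the lowest of the 55 members there, and that in subclone 2 was 0.587 (0.512 to 0.672). None of its 50-base stretches was found in another gene. DNAJC4, a J protein placed in mitochondria, went the other way, at 5.66, 8.18 and 9.60 RPKM. Its fold was 1.45 (0.911 to 2.32) in subclone 1 and 1.70 (1.09 to 2.69) in subclone 2 on 33, 49 and 59 reads, and 20% of its stretches were shared, chiefly with NUDT22, so reads of the 2 genes may be mixed. Over the 10 mitochondrial members, 9 of which passed the filter, 8 were lower in subclone 1 and 6 in subclone 2. Of all 11370 genes, 5635 and 5286 were lower. The summed level of the 10 members was 1028 RPKM in the parent against 757 in subclone 1 and 705 in subclone 2, mostly through HSPD1.

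The small heat-shock proteins had a higher sum in the subclones, almost all of it HSPB1, since the sum without HSPB1 was 96.0, 109.7 and 92.0 RPKM. HSPB1, known as HSP27, was at 458 RPKM in the parent against 642 in subclone 1 and 544 in subclone 2. Its fold was 1.40 (1.32 to 1.49) in subclone 1 and 1.19 (1.12 to 1.26) in subclone 2, and subclone 2 was also below subclone 1 (0.847, 0.801 to 0.896). HSPB6, known as HSP20 and best known from muscle, was at 9.02 RPKM in the parent against 25.0 in subclone 1 and 13.2 in subclone 2, from 59, 168 and 91 reads. Its fold of 2.77 (2.05 to 3.80) in subclone 1 was the highest of the 55 members, and in subclone 2 it was 1.47 (1.04 to 2.07). For both genes the order was parent, then subclone 2, then subclone 1. HSPB8, the partner of BAG3 in removing damaged proteins, was named after its values were seen and was at 47.2, 42.8 and 39.7 RPKM, with a fold of 0.907 (0.790 to 1.04) and 0.841 (0.731 to 0.967). HSPB1 was therefore 9.69 times HSPB8 in the parent, 15.0 times in subclone 1 and 13.7 times in subclone 2. HSPB11, a protein of the ciliary transport machinery that carries the name only, had intervals that held 1.

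Of the DNAJA and DNAJB co-chaperones, many of which work with cytosolic HSP70, DNAJA1 was the most abundant, at 371, 295 and 310.2 RPKM. Its fold was 0.796 (0.751 to 0.844) in subclone 1 and 0.837 (0.790 to 0.886) in subclone 2. DNAJB1, the main heat-inducible HSP40, was at 119, 107 and 110.03 RPKM, with a fold of 0.902 (0.830 to 0.980) in subclone 1 and an interval that reached 1 in subclone 2 (0.853 to 1.00). DNAJB4, a close relative of DNAJB1, was at 23.1 RPKM in the parent against 19.9 in subclone 1 and 11.9 in subclone 2. Here subclone 2 alone stood apart, with a fold of 0.518 (0.414 to 0.646) over the parent and 0.601 (0.478 to 0.754) over subclone 1, while the interval of subclone 1 over the parent held 1 (0.710 to 1.04).

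DNAJB6, which keeps polyglutamine proteins from aggregating and whose promoter holds the element printed above, was named after its values were seen. It was at 64.3, 76.8 and 84.0 RPKM, a fold of 1.19 (1.08 to 1.32) and 1.31 (1.18 to 1.44), the opposite direction to HSPA8, which also holds the element. With division by ACTB the interval of DNAJB6 in subclone 1 held 1. DNAJB14, a J protein of the endoplasmic reticulum (ER) membrane, had the smallest spread of the group, at 7.12, 7.09 and 7.07 RPKM.

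The DNAJC proteins share the J domain and little else, and their genes went in both directions. Of the 22 that passed the filter, 16 were lower in subclone 1 and 15 in subclone 2, against 5635 and 5286 of all 11370 genes. DNAJC8, a J protein found with the spliceosome and by its mean the highest DNAJC gene, was at 82.4, 78.8 and 82.1 RPKM with intervals that held 1. DNAJC2, the J protein of the ribosome-associated complex, was at 98.4 RPKM in the parent against 61.9 in subclone 1 and 63.1 in subclone 2. Its fold was 0.629 (0.568 to 0.696) and 0.642 (0.581 to 0.709), whereas HSPA14 of the same complex had intervals that held 1. DNAJC10, a disulfide reductase of the ER known as ERdj5, was at 40.1, 24.0 and 21.4 RPKM. Its fold was 0.599 (0.533 to 0.674) and 0.534 (0.473 to 0.603), and for DNAJC2 and DNAJC10 alike both subclones lay below the parent, with intervals between the subclones that held 1.

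Of the 4 ER J proteins that respond to unfolded protein in that compartment, DNAJC10 included, 3 were lower in each subclone. The interval left out 1 for 2 of the 4 in each, DNAJB11 and DNAJC10 (50%, against 19.4% and 18.3% of all genes). The intervals of DNAJB9, also lower, held 1 (0.697 to 1.07 and 0.689 to 1.06). DNAJB11, a cofactor of BiP, was chosen after its values were seen and was at 87.3, 71.3 and 70.3 RPKM, a fold of 0.817 (0.729 to 0.914) and 0.805 (0.719 to 0.901). DNAJC3 was above the parent in both, at 8.87, 9.53 and 10.5 RPKM, with intervals that held 1. The 11 ER members summed to 203 RPKM in the parent against 165 in subclone 1 and 166 in subclone 2, mostly through DNAJB11 and DNAJC10. Among the vesicle J proteins, and also chosen after its values were seen, DNAJC5, the cysteine string protein of secretory vesicles, was higher in the subclones, at 17.0, 22.6 and 23.2 RPKM, a fold of 1.33 (1.17 to 1.51) and 1.36 (1.20 to 1.55).

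A list of 15 members taken as heat-inducible (HSPA1A, HSPA1B, HSPA6, HSPA8, HSPH1, HSPB1, HSPD1, HSPE1, HSP90AA1, HSP90AB1, DNAJA1, DNAJB1, DNAJB4, HSPA4L and HSPB8) was read together. It includes HSPA8 and HSP90AB1, described above as constitutive. Of the 14 that passed the filter, 13 were lower than the parent in subclone 1, with HSPB1 the exception. In subclone 2 it was 12, with HSPB1 and HSPA1B the exceptions. Of all 11370 genes, 5635 and 5286 were lower. The interval left out 1 for 8 of the lower genes in subclone 1 (57.1% of the 14, against 19.4% of all genes) and for 10 in subclone 2 (71.4%, against 18.3%). The list was not compared with genes of like read number, and its abundant members have narrow intervals. Their median log2 difference was -0.18 in subclone 1 and -0.25 in subclone 2, against 0.0043 and 0.037 for all genes. Of the 15 promoters 2 held the element, HSPA8 and HSPA6 (13.3%). In subclone 1 HSPA4L, HSPD1 and the constitutive HSPA8 were the farthest below the parent, while HSPA1A, HSPA1B, HSPE1, HSPB8 and DNAJB4 had intervals that held 1. In subclone 2 the intervals of HSPA1A, HSPA1B and DNAJB1 held 1.

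The count of members past each rule was smaller between the subclones than between either subclone and the parent, and so was that of all genes. Over subclone 1, 29 members were higher and 26 lower in subclone 2, against 6420 and 4946 of all 11370 genes. The median log2 difference was 0.014 against 0.034 for all genes. The direction of the members turned with the scaling. It went from 22 higher and 33 lower with the upper quartile to 39 higher and 16 lower with division by ACTB or GAPDH. No member differed 2-fold, against 1.42% of all genes higher and 1.39% lower. At 1.5-fold with an interval that leaves out 1, none was higher, against 3.08%, and DNAJB4 and HSPB6 were lower (3.64% of the members), against 2.67%. By the interval alone 2 were higher (3.64%, against 11.9%) and 9 lower (16.4%, against 8.75%). That balance turned to 14 higher with 3 lower under ACTB and 14 with 5 under GAPDH, while with the upper quartile none was higher. The median log2 difference of all genes moved too, to 0.16 with ACTB, 0.15 with GAPDH and -0.015 with the upper quartile. The rescaled counts are therefore not read as particular to the members. HSPB6 was at 0.528 of subclone 1 (0.405 to 0.686). HSPA8 (0.912, 0.890 to 0.935), HSPD1 (0.889, 0.853 to 0.927) and HSPE1 (0.795, 0.687 to 0.919) were lower again in subclone 2, while HSP90AA1 (1.05, 1.02 to 1.07) was slightly higher. With division by ACTB the intervals of HSPA8 (0.970 to 1.02), HSPD1 (0.930 to 1.011) and HSPE1 (0.750 to 1.002) held 1, with GAPDH those of HSPA8 and HSPD1 did, and with the upper quartile that of HSP90AA1 did (0.989 to 1.04). HSPB1, HSPB6 and DNAJB4 were below subclone 1 under each of these scalings, with intervals without 1.

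Genes that work with the chaperones were taken from a list of 55, of which 54 were listed in the data and 53 passed the filter. The transcription factor HSF1, the main switch of the heat response, was at 49.1, 49.0 and 50.1 RPKM, and HSF2 was at 7.76, 7.16 and 7.06, both with intervals that held 1. Of the 53 genes, 39 were lower than the parent in each subclone, against 5635 and 5286 of all 11370 genes. The interval left out 1 for 22 lower genes in each (41.5%), with 2 higher in subclone 1 (3.77%) and 4 in subclone 2 (7.55%). Of all genes 19.4% and 18.3% were lower by this rule, and 20.4% and 23.1% higher. The partner lists were not compared with genes of like read number, and genes with many reads have narrow intervals.

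The HSP90 of the ER, HSP90B1, was named after its values were seen. Unlike HSP90AA1 and HSP90AB1 it was above the parent, at 610.1, 659 and 653 RPKM, a fold of 1.08 (1.05 to 1.11) and 1.07 (1.04 to 1.104). Of 4 other HSP70 and HSP90 genes on the partner list, HSP90B1 included, 2 were above the parent and 2 below in each subclone. With division by ACTB all 4 were below the parent in subclone 1. TRAP1, also named after its values were seen, was lower, a fold of 0.812 (0.728 to 0.905) and 0.852 (0.765 to 0.947). The HSP90 co-chaperones were mostly lower. Of 13 genes 11 were lower in each subclone and 9 had an interval without 1 (69.2%, against 19.4% and 18.3% of all genes). At 1.5-fold with such an interval, 2 of the 13 were lower in subclone 1 and 1 in subclone 2, against 6.24% and 5.82% of all genes. STIP1, which joins HSP70 to HSP90, was at 338 RPKM in the parent against 305 in subclone 1 and 298 in subclone 2, and CDC37, which delivers kinases, at 83.0, 65.3 and 68.5. FKBP5 and PPID, immunophilins of steroid receptor complexes, were lower by more. FKBP5 was at 9.93, 6.02 and 6.08 RPKM, a fold of 0.607 (0.507 to 0.725) and 0.612 (0.513 to 0.730). PPID was at 64.0, 42.3 and 43.4 RPKM, a fold of 0.661 (0.577 to 0.757) and 0.679 (0.593 to 0.775).

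Of the 12 HSP70 co-chaperones 7 were lower in subclone 1, or from 6 with the upper quartile to 11 with division by ACTB, and 9 in subclone 2, or 5 with division by GAPDH. BAG3, an exchange factor that is itself heat-inducible, was at 34.9, 32.4 and 37.2 RPKM with intervals over the parent that held 1. The interval left out 1 for 2 lower genes in subclone 1, BAG2 and BAG5 (named after its values were seen), and for BAG2 in subclone 2. These were 16.7% and 8.33% of the list, against 19.4% and 18.3% of all genes. BAG2, which holds back the ubiquitin ligase STUB1, was at 39.8 RPKM in the parent against 20.7 in subclone 1 and 24.7 in subclone 2, a fold of 0.520 (0.435 to 0.620) and 0.620 (0.525 to 0.732).

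The chaperonin CCT, which folds actin and tubulin, and its partner prefoldin were mostly lower. Of 14 genes 11 were lower in subclone 1 and 10 in subclone 2, 9 of them in each with an interval without 1 (64.3%, against 19.4% and 18.3% of all genes). At 1.5-fold with such an interval, 0 were lower in subclone 1 and 1 in subclone 2, against 6.24% and 5.82% of all genes. CCT4 was at 200.4, 151 and 129 RPKM, a fold of 0.752 (0.704 to 0.802) and 0.644 (0.602 to 0.689). PFDN5, named after its values were seen, was the only gene of the list above the parent by more than counting error, at 206, 259 and 247 RPKM. Of the small heat-shock protein CRYAB 12, 9 and 3 reads were found, a fold of 0.237 (0.0430 to 0.880) in subclone 2. PAM16 of the import motor had 6, 4 and 3.

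**Figure D5:**
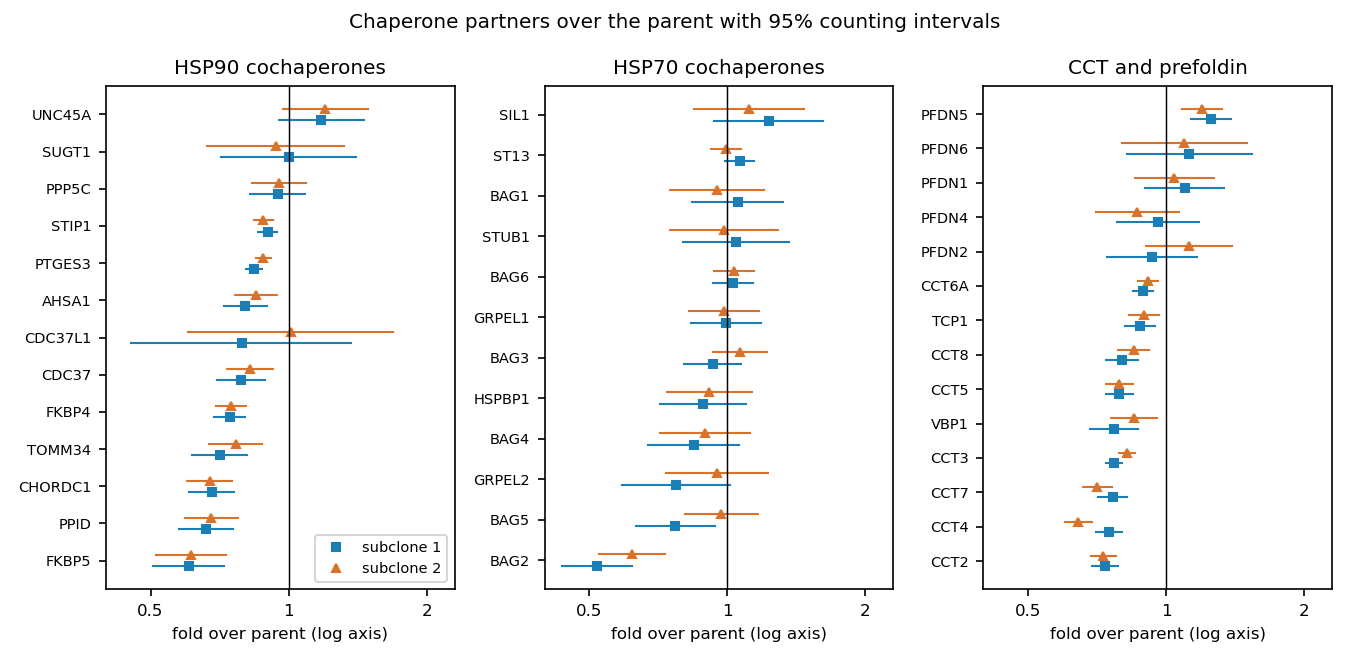
Points give the fold of RPKM over the parent on a log axis, with 95% counting intervals, for 13 HSP90 co-chaperones, 12 HSP70 co-chaperones and 14 CCT and prefoldin genes, in subclone 1 (squares) and subclone 2 (triangles). Most HSP90 co-chaperones and all CCT subunits shown lie to the left of 1 in both subclones, while most HSP70 co-chaperones have intervals that hold 1.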

How the data were processed

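Cultured cells of 3 HCC lines were sequenced with 1 library each (Trizol RNA, Illumina TruSeq kit, per the labels). The authors deposited RPKM per gene, listing genes above 0. The submitters' processing notes name the build hg19, and the aligner, the counting, the annotation and strand use are not given in the sources used here. Reads shared between near-identical or overlapping genes may therefore be split or mixed.

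Fold changes were taken on RPKM, and log2 differences on log2(RPKM + 0.1), over the 11370 of 16149 genes whose mean RPKM reached 1. An RPKM is a whole number of reads over a length and a total. The totals were found as those at which the last rows of each table, of 1 read each, give whole lengths, and the order of the rows by reads fixed the multiple. This gave whole reads for 16099 genes (99.69%), which held 99.9% of each total. Reads were used for exact Poisson intervals of levels and Clopper-Pearson intervals of folds, at 95%, and cover counting error only. The recovery was tested on simulated data. With 1 library per line no test, p-value or count model was used. Shared sequence was the share of 50-base stretches of the GENCODE transcript nearest in length that occur in other genes. For 58 of the 72 members that transcript was within 10% of the recovered length. At least 10% of the stretches were shared for 19 members, among them HSPA8 (12.8%), HSPB1 (11.4%), DNAJB6 (19.1%) and DNAJB11 (24.6%).

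Members and lists were chosen with earlier results of these data known. Members named with values were the main chaperones, the 10 highest, those at 2-fold, those at 1.5-fold with an interval without 1, the highest of each family and the 3 of smallest spread. Partners were named at the same folds, with HSF1, HSF2, BAG3, STIP1 and CDC37. Alternatives were pseudocounts of 0.01 and 1, no filter or a mean of 5, scaling to the same sum, the upper quartile, ACTB or GAPDH, median centring, 1.5-fold, and leaving out members with near-identical copies. The rules that use intervals were added after the data were seen. Python 3.11.15, numpy 2.4.6, pandas 2.3.3, scipy 1.17.1 and matplotlib 3.10.9 were used.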

Additional observations from a re-analysis of the deposited data

How the results depend on the processing

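No paired analysis was possible because each line had 1 library, and no library could be left out without losing a line. Of 504 values of the named members under the alternatives, 463 moved by less than their counting interval, 41 by more, and no called direction turned. At 2-fold, subclone 1 over the parent had 6 members higher and 3 lower with no filter on low values, 1 lower with division by ACTB and 4 lower at 1.5-fold. Subclone 2 over the parent had 2 higher and 4 lower with no filter, 1 higher and 8 lower at 1.5-fold, and 0 lower with a pseudocount of 1, with a mean of at least 5 or without members with near-identical copies. Subclone 2 over subclone 1 had 1 higher and 5 lower with no filter, 4 lower at 1.5-fold, and 1 lower with a pseudocount of 0.01, the upper quartile or median centring. Without the filter the added genes were those under a mean RPKM of 1. For the other changes the cause was not tested. ACTB was at 3189, 3496 and 3205 RPKM and moved the median of all genes to -0.13 in subclone 1 over the parent and to 0.16 in subclone 2 over subclone 1, and GAPDH moved the latter to 0.15. The median of the members was then -0.24 for subclone 1 over the parent with ACTB, and 0.14 (ACTB) and 0.13 (GAPDH) for subclone 2 over subclone 1. At 1.5-fold with an interval, ACTB gave 8 lower in subclone 1 and GAPDH 2 higher in subclone 2 over the parent. By the interval alone, ACTB gave 3 higher in subclone 1. For subclone 2 over subclone 1 the higher count was 14 with ACTB or GAPDH, 1 with the same sum or median centring and 0 with the upper quartile, and the lower count was 3 with ACTB and 5 with GAPDH. The members lower than the parent numbered 34 to 44 in subclone 1 and 32 to 40 in subclone 2 over the scalings. The counts in this section are given without the share of all genes under the same setting, so none is read as a result about the members. Depth limits the 17 members under a mean RPKM of 1.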
